A study of Mus musculus with 4 samples.

Results

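The WNT ligands, their receptors and their secreted modulators were followed in RNA-seq of E13.5 mouse retinas with and without the transcription factor Nrf1. A gene belonged to this set by its symbol in the count table: every Wnt, Fzd, Sfrp, Dkk (Dkk1 to Dkk4) and Rspo gene, the co-receptors Lrp5 and Lrp6, the inhibitor Wif1, and the pathway targets Axin2 and Lef1. These rules took 46 of 24062 genes, and the rule reads only symbols, not measured values. They were 19 ligands, 12 receptors, 9 secreted inhibitors, 4 R-spondins and 2 targets.

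The study deleted Nrf1 from retinal progenitor cells to ask what the factor does in the developing retina. RNA was compared between 2 wildtype (WT) and 2 Nrf1-CKO libraries, all from retinas of E13.5 embryos of a C57BL/6 129 mixed strain. Nrf1-CKO embryos were Nrf1 f/f;Six3-Cre: Cre recombinase under Six3 control removes a floxed exon of Nrf1, and it starts in the central retina, so cells at the rim and in tissue attached to the retina can keep the gene. Each library was a pool of retinas from several littermates, the study used both sexes, and the wildtype label names no floxed allele or Cre.

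WNT proteins are secreted lipid-modified signals that bind Frizzled receptors. With the co-receptors Lrp5 or Lrp6 they stabilise beta-catenin, which turns on target genes together with TCF/LEF factors, and through other routes they orient cells and axons. In the embryonic eye this signal is known for its part at the rim of the optic cup, where it favours ciliary margin and pigment epithelium over neural retina, and in the lens and the ocular vessels. Sfrp, Dkk and Wif1 proteins hold the signal back, and R-spondins amplify it by keeping Frizzled receptors on the cell surface.

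Depth was alike in the 4 libraries, from 74577660 to 85933945 reads on genes, and 15762 genes passed the filter on low counts. Reads on Nrf1 did not separate the genotypes, with 9052 and 7789 in wildtype and 8594 and 8284 in Nrf1-CKO (log2 fold change -0.03, standard error [SE] 0.07). A count over the whole gene cannot show the loss of 1 exon, so this is no check of the deletion. Progenitor markers were abundant in every library, with 13 of 13 tested, 2 of them (Ccnd1 and Fgf15) called lower, and a summed level between 7402 and 9519 CPM, that is reads scaled for library size with TMM factors. At the limits given below, ganglion cell markers were called lower in Nrf1-CKO in 11 of 12 genes, and 12 of 14 lens markers were called higher. The lens sum was 167 and 443 CPM in wildtype and 9317 and 3777 CPM in Nrf1-CKO, so lens RNA differed between genotypes and also between libraries of the same genotype.

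The WNT genes were called higher in Nrf1-CKO far more often than lower. A gene was called at a change of at least 1.4-fold with an adjusted p of at most 0.2 in edgeR's quasi-likelihood test with Benjamini-Hochberg adjustment over all tested genes. Of the 43 members that passed the filter, 17 were called higher, 1 was called lower and 25 were not called. Over all tested genes 12.8% were called higher and 8.04% lower in this same fit. With glmTreat, which tests against the 1.4-fold limit itself, 11 members were called higher, and on the deposited log2 values with limma 10 were. In both the lower call was lost, and the shares of all genes called there were not counted. At an adjusted p of at most 0.05, 13 members were called higher, against a background of 9.17%. Both Nrf1-CKO libraries lay above both wildtype libraries in 23 of the 43 tested members, and this held for 30.9% of all tested genes. They lay below both in 3 of the 43, and this held for 31.6% of all tested genes. The median log2 fold change of the tested members was 0.55, and that of all tested genes was 0.000728. In RNA of whole retinas, fewer cells of a type and less RNA per cell cannot be told apart. The labels do not say whether the 2 pools of a genotype came from separate litters or days, so the p-values measure the spread between these libraries, which may be technical.

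**Figure D1:**
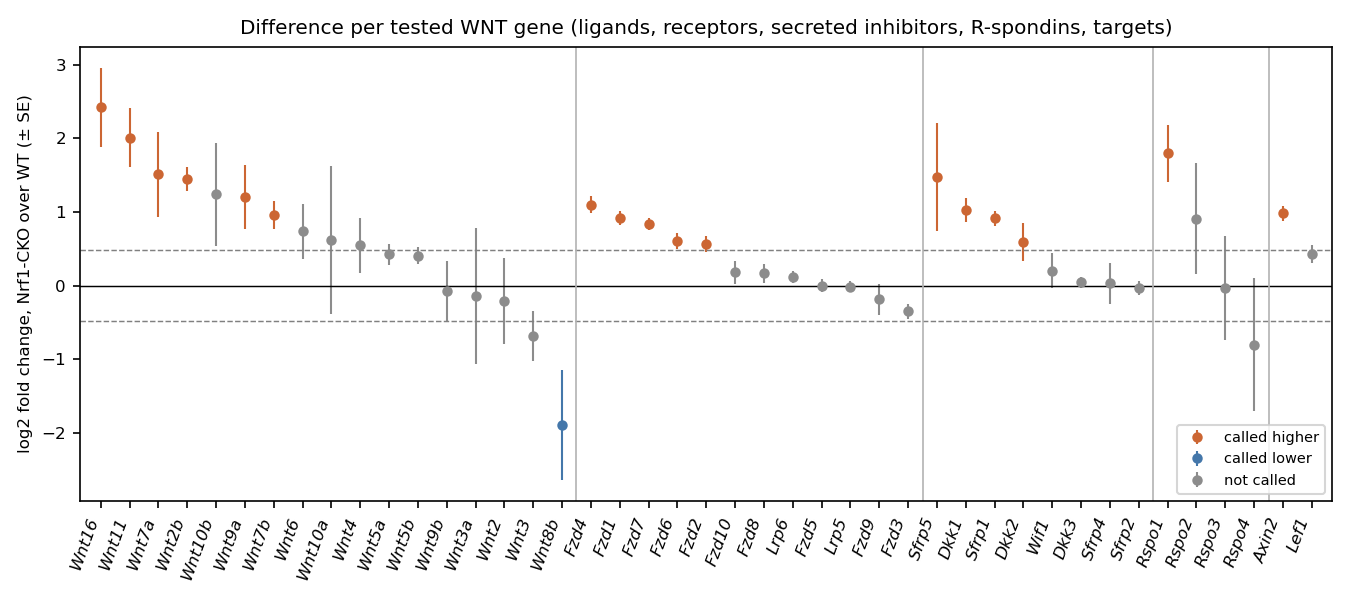
Fitted log2 fold change of each of the 43 tested WNT genes, Nrf1-CKO over wildtype, with its SE, in the order ligands, receptors, secreted inhibitors, R-spondins and targets; colour marks the call and the dashed lines mark a change of 1.4-fold. Every class has called genes above the upper line, and Wnt8b is the called gene below the lower line.

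Among the ligands, Wnt2b, Wnt7b, Wnt11, Wnt16, Wnt7a and Wnt9a rose and Wnt8b fell. Wnt2b, a ligand of the rim of the optic cup that favours peripheral fates, lies on chromosome 3 of GRCm38 from 104945272 to 104961921. It had 716 and 446 reads in wildtype and 1679 and 1540 in Nrf1-CKO. The mutant libraries were both more than 2 times as high as either wildtype library, and the level went from 7.09 ± 1.53 to 19.4 ± 1.13 CPM (SD, n = 2). Its log2 fold change was 1.45 (SE 0.16, adjusted p = 0.000372 in edgeR's test). Wnt7b, a ligand made by macrophages of the eye and known for its role in the regression of the fetal ocular vessels, lies on chromosome 15 from 85535437 to 85582473. Its reads were 806 and 784 in wildtype and 1932 and 1258 in Nrf1-CKO, so the groups did not overlap but the mutant libraries were far apart. Means were 9.89 ± 0.966 and 19.2 ± 5.69 CPM, and the log2 fold change was 0.96 (SE 0.19, adjusted p = 0.00723), which was 0.62 without Nrf1-CKO replicate 1. On the deposited log2 values, tested with limma, it was no longer called (0.66, adjusted p = 0.259).

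Wnt11, a ligand of the beta-catenin-independent routes, lies on chromosome 7 from 98835112 to 98855195. It had few reads in wildtype, 55 and 34, and 141 and 223 in Nrf1-CKO. The rise was from 0.543 ± 0.12 to 2.20 ± 0.706 CPM, a log2 fold change of 2.01 (SE 0.40, adjusted p = 0.00697 in edgeR's test). Wnt16, on chromosome 6 from 22288227 to 22298522, counted 48 and 12 reads in wildtype against 160 and 161 in Nrf1-CKO. This was the highest log2 fold change among the tested members in the fit of the counts, 2.42 (SE 0.54, adjusted p = 0.0118). Its size rested on the wildtype libraries, since it was 3.57 without WT replicate 1 and 1.82 without WT replicate 2. On the deposited log2 values with limma, Wnt16 and Wnt11 stayed called with smaller values, 0.62 and 0.55, and Wnt16 was then below Wnt2b (0.99).

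Wnt7a and Wnt9a were called higher from fewer reads. Wnt7a, close kin of Wnt7b, counted 16 and 34 reads in wildtype and 68 and 83 in Nrf1-CKO (log2 fold change 1.52, SE 0.58, adjusted p = 0.0961 in edgeR's test). For Wnt9a the reads were 40 and 55, then 99 and 130 (log2 fold change 1.21, SE 0.44, adjusted p = 0.0808). Neither pair of groups overlapped, but both calls were lost without WT replicate 1 (0.99 and 0.90) and without Nrf1-CKO replicate 2 (1.36 and 0.99), and Wnt7a came to 2.31 without WT replicate 2. Wnt8b, a ligand best known from the embryonic forebrain, went the other way, with 37 and 29 reads in wildtype and 13 and 5 in Nrf1-CKO. Its log2 fold change was -1.89 (SE 0.75, adjusted p = 0.106). That call was lost without either wildtype library (-1.83 and -1.94) and without Nrf1-CKO replicate 2 (-1.37), and the value was -2.72 without Nrf1-CKO replicate 1.

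Of the 10 tested ligands that were not called, 5 had a mean of at least 1 CPM. Wnt5b, which acts mainly through the beta-catenin-independent routes, had 1194 and 1171 reads in wildtype and 1655 and 1584 in Nrf1-CKO. These did not overlap, and the log2 fold change of 0.41 (SE 0.12, adjusted p = 0.0352 in edgeR's test) was below the 1.4-fold limit. Wnt5a, its close relative, went from 6.78 ± 0.113 to 9.10 ± 0.784 CPM (log2 fold change 0.42, adjusted p = 0.0696), also with no overlap and below that limit. Leaving out WT replicate 2 (0.52) for Wnt5b or Nrf1-CKO replicate 2 (0.51) for Wnt5a took them past it. Wnt3, a canonical ligand, had 128 and 137 reads in wildtype and 86 and 85 in Nrf1-CKO (log2 fold change -0.68, adjusted p = 0.2003, just above the limit of 0.2). It was called lower with library size only (adjusted p = 0.190), without the filter (0.198) and with at least 10 reads required in every library (0.178). Wnt6 had a log2 fold change of 0.74 (adjusted p = 0.202) with no overlap, and was called with upper-quartile scaling (0.181) and with at least 10 reads required in every library (0.162). Wnt4 had a log2 fold change of 0.55 (adjusted p = 0.346) with mutant libraries of 2.41 and 1.32 CPM, and it was 0.92, with a call, without Nrf1-CKO replicate 2 but 0.051 without Nrf1-CKO replicate 1.

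The remaining ligands were rare in both genotypes. Wnt1 had no read in any library, which allows up to 3 reads in each. Wnt8a had 4 reads in 1 Nrf1-CKO library and none elsewhere, and no fold is given. Wnt2, Wnt3a, Wnt9b, Wnt10a and Wnt10b had between 3 and 81 reads per library and were not called. Of these, Wnt10b was higher in both mutant libraries, with 25 or more reads against at most 17 in wildtype.

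**Figure D2:**
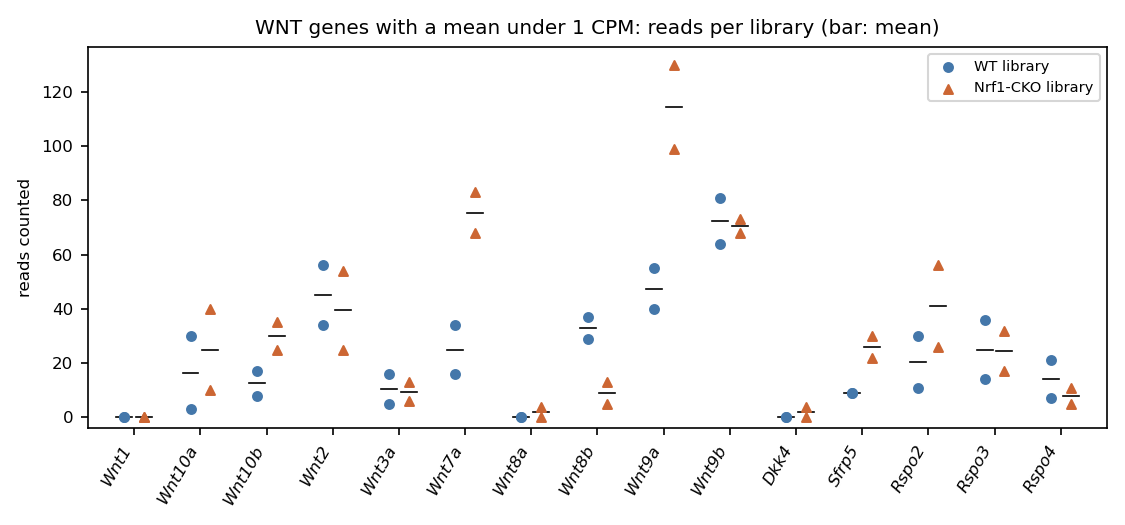
Reads per library for the 15 WNT genes with a mean under 1 CPM, with wildtype as circles, Nrf1-CKO as triangles and a bar at each mean. The genotypes do not overlap for Wnt7a, Wnt8b, Wnt9a, Wnt10b or Sfrp5, and Wnt1 sits at 0 throughout.

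Between genes, levels were compared as CPM per kb of exon. On this scale Wnt5b was the leading ligand in every library, with 5.54 ± 0.574 in wildtype and 7.36 ± 0.207 in Nrf1-CKO. Wnt7b (2.02 ± 0.197) and Wnt2b (1.69 ± 0.364) followed in wildtype and overlapped each other. In Nrf1-CKO the order of these 2 was turned, with Wnt2b at 4.62 ± 0.269 and Wnt7b at 3.93 ± 1.16, and they again overlapped. The summed ligand level was 12.4 and 12.7 CPM per kb in wildtype and 22.3 and 19.5 in Nrf1-CKO. Wnt5b made up 41.4% and 46.7% of that sum in wildtype and 33.6% and 37.0% in Nrf1-CKO, while the share of Wnt2b was 15.7% and 11.2%, then 21.5% and 22.8%.

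**Figure D3:**
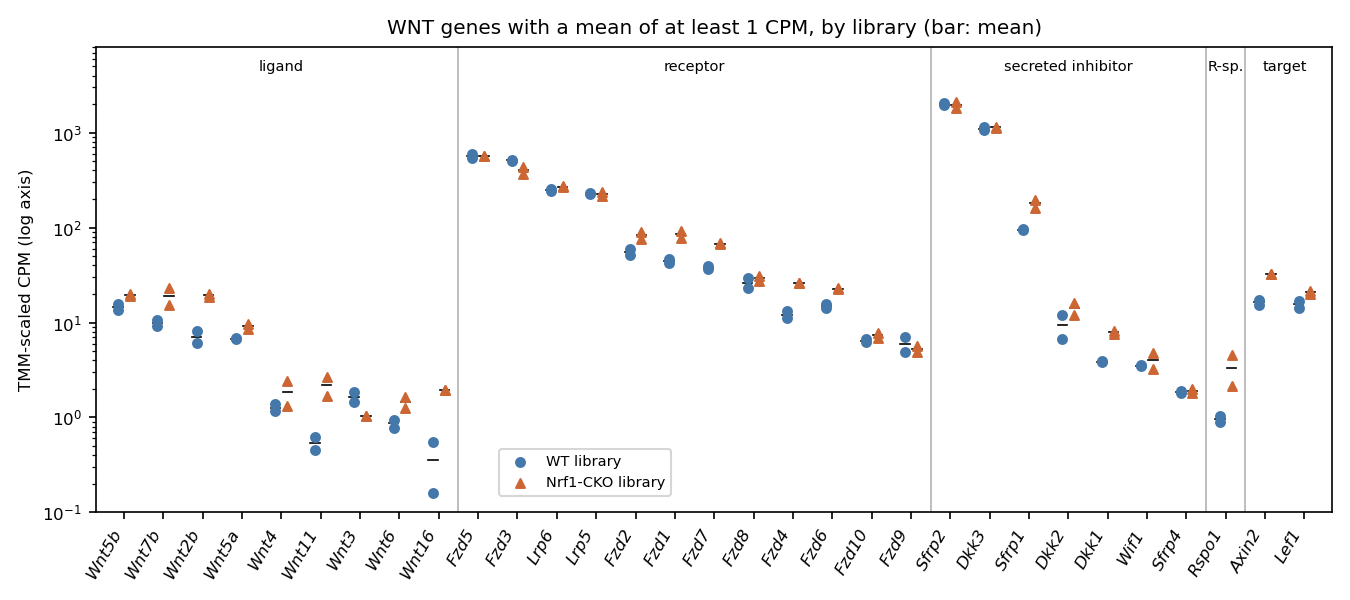
TMM-scaled CPM on a log axis for the 31 WNT genes with a mean of at least 1 CPM, with wildtype libraries as circles, Nrf1-CKO libraries as triangles and a bar at each mean. Values run from under 1 CPM for Wnt16 in wildtype to 2101 CPM for Sfrp2, and the called ligands, receptors and inhibitors are shifted up while Fzd5, Lrp5, Sfrp2 and Dkk3 lie level.

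The receptors split into 2 sets. Fzd4, Fzd1, Fzd7, Fzd6 and Fzd2 rose in Nrf1-CKO, and the most abundant Frizzled genes did not. Fzd4, the receptor of norrin in retinal vessels, lies on chromosome 7 from 89404355 to 89413134. It had 1152 and 819 reads in wildtype and 2147 and 2155 in Nrf1-CKO, from 12.1 ± 1.49 to 25.9 ± 0.144 CPM. The log2 fold change was 1.10 (SE 0.12, adjusted p = 0.000339 in edgeR's test), the highest of the receptors, and the groups were well apart.

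Fzd1 and Fzd7 are closely related receptors that can signal through beta-catenin. Fzd1, on chromosome 5 from 4753839 to 4758035, had 4136 and 3146 reads in wildtype and 6502 and 7538 in Nrf1-CKO (log2 fold change 0.92, SE 0.10, adjusted p = 0.000324 in edgeR's test). For Fzd7, on chromosome 1 from 59482424 to 59486955, the reads were 3410 and 2693, then 5541 and 5628 (log2 fold change 0.84, SE 0.08, adjusted p = 0.000210). Fzd2, the third of this subfamily, went from 55.8 ± 6.08 to 82.6 ± 9.11 CPM with no overlap (log2 fold change 0.57, SE 0.11, adjusted p = 0.00518). It lay close to the 1.4-fold limit and fell under it without WT replicate 1 (0.46) or Nrf1-CKO replicate 2 (0.45). Fzd6, known for planar cell polarity, went from 15.0 ± 0.936 to 22.8 ± 0.604 CPM (log2 fold change 0.61, SE 0.11, adjusted p = 0.00390), again with no overlap, and was not called on the deposited log2 values with limma (0.46, adjusted p = 0.0981).

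Fzd5, a receptor known from retinal progenitors, was at a like level in both genotypes. Its 4 libraries held 545 and 597 CPM in wildtype and 572 and 573 CPM in Nrf1-CKO, for a log2 fold change of 0.00 (SE 0.08). Fzd3, which acts in axon guidance, had 44203 and 38389 reads in wildtype and 36382 and 30253 in Nrf1-CKO. Scaled for depth, both mutant libraries (438 and 366 CPM) were below both wildtype libraries (505 and 518 CPM). The log2 fold change of -0.35 (SE 0.10, adjusted p = 0.0347 in edgeR's test) did not reach 1.4-fold. Fzd8, Fzd9 and Fzd10 had log2 fold changes of 0.17, -0.18 and 0.18 with adjusted p from 0.402 to 0.593, and none was called.

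The co-receptors Lrp5 and Lrp6, which pair with Frizzled in the beta-catenin route, stayed close to their wildtype levels. Lrp5 held 228 ± 3.27 CPM in wildtype and 226 ± 13.9 CPM in Nrf1-CKO, with a log2 fold change of -0.01 (SE 0.08). For Lrp6 the level was 249 ± 9.28 and 271 ± 4.13 CPM, a log2 fold change of 0.12 (SE 0.08). Lrp6 was higher in both mutant libraries, by less than the call needs.

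Per kb of exon, Fzd5 led the Frizzled genes in both genotypes, at 82.6 ± 5.32 and 82.8 ± 0.0665 CPM per kb, and Fzd3 was next at 39.9 ± 0.709 and 31.4 ± 3.99. In wildtype the order went on with Fzd2, Fzd1, Fzd7 and Fzd8, each above the next in every library. Fzd6 and Fzd9 overlapped, as did Fzd10 and Fzd4 at the bottom. In Nrf1-CKO, Fzd4 moved from the last place (1.80 ± 0.222) to above Fzd9 and Fzd10 (3.86 ± 0.0214), and Fzd2 overlapped Fzd1. The sum of the 10 genes was 165 and 176 CPM per kb in wildtype and 188 and 191 in Nrf1-CKO. Fzd5 and Fzd3 together held less of it in the mutant: Fzd5 made up 47.7% and 49.1% in wildtype against 43.9% and 43.3%, and Fzd3 23.8% and 23.0% against 18.2% and 14.9%.

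**Figure D4:**
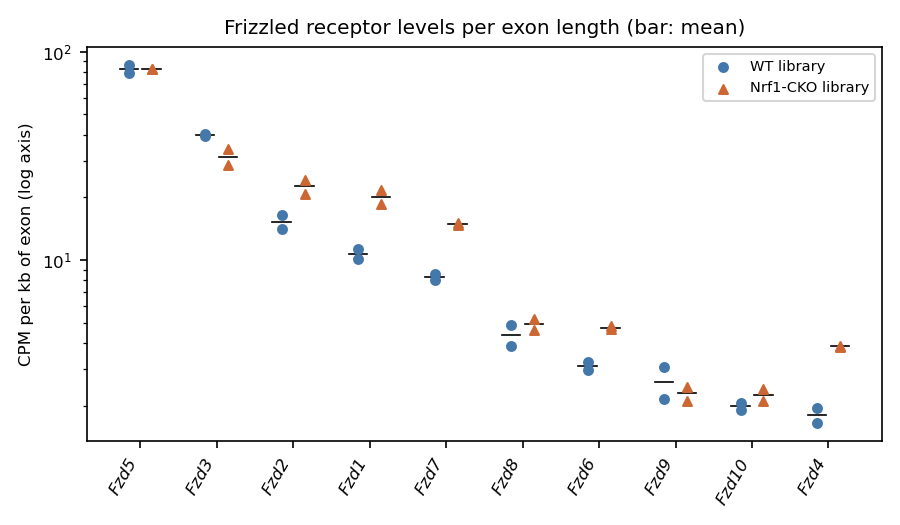
Level of the 10 Frizzled genes in CPM per kb of exon on a log axis, ordered by wildtype mean, with wildtype libraries as circles, Nrf1-CKO libraries as triangles and a bar at each mean. Fzd5 is level near 83, Fzd3 is lower in Nrf1-CKO, and Fzd2, Fzd1, Fzd7, Fzd6 and Fzd4 are higher.

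Of the secreted inhibitors, Sfrp1, Dkk1, Dkk2 and Sfrp5 were called higher and none lower. Sfrp1, which binds WNT proteins and is made in the optic cup, lies on chromosome 8 from 23411502 to 23449632. It had 8260 and 7105 reads in wildtype and 16400 and 13387 in Nrf1-CKO, from 95.1 ± 1.04 to 180 ± 25.2 CPM. The log2 fold change was 0.92 (SE 0.10, adjusted p = 0.000371 in edgeR's test), and the groups did not overlap. Dkk1, which blocks Lrp5 and Lrp6 and is itself a target of the pathway, lies on chromosome 19 from 30545863 to 30549665. Its reads were 334 and 289 in wildtype and 636 and 672 in Nrf1-CKO, a log2 fold change of 1.03 (SE 0.16, adjusted p = 0.00216), with the mutant libraries close together.

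The other calls among the inhibitors were weaker. Dkk2, needed in periocular mesenchyme for the ocular surface, had 1051 and 492 reads in wildtype and 1349 and 984 in Nrf1-CKO. On the CPM scale the genotypes overlapped, with 12.001 and 6.63 against 16.2 and 11.9. Its log2 fold change of 0.59 (SE 0.26, adjusted p = 0.141 in edgeR's test) was 1.09 without WT replicate 1, and it was no longer called without WT replicate 2 (0.23) or Nrf1-CKO replicate 1 (0.35). Sfrp5 had only 9 and 9 reads in wildtype and 30 and 22 in Nrf1-CKO (log2 fold change 1.48, SE 0.73, adjusted p = 0.189). It lost its call when any 1 library was left out, with values from 1.24 to 1.68, and kept it in only 2 of 13 alternatives. With DESeq2 the adjusted p was 0.374, and with library size only it was 0.205.

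The abundant inhibitors were level. Sfrp2 held 2004 ± 69.1 CPM in wildtype and 1961 ± 199 CPM in Nrf1-CKO, and Dkk3, a divergent family member, held 1103 ± 52.1 and 1138 ± 17.8 CPM. Sfrp2 made up between 94.9% and 97.7% of the summed Sfrp level per kb, and Dkk3 between 97.8% and 98.9% of the Dkk sum. The sums went from 930 and 976 to 891 and 1014 CPM per kb for Sfrp and from 344 and 321 to 343 and 349 for Dkk. Sfrp4 (log2 fold change 0.03) and Wif1 (0.20), which binds WNT proteins outside the cell, were not called, and their genotypes overlapped. Dkk4 had 4 reads in 1 Nrf1-CKO library and none in the others.

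Rspo1, the only R-spondin with a mean of at least 1 CPM, rose. It lies on chromosome 4 from 124986430 to 125009099 and had 78 and 76 reads in wildtype and 376 and 176 in Nrf1-CKO. The wildtype libraries were nearly equal and the mutant libraries differed by a factor of more than 2. Its log2 fold change was 1.80 (SE 0.39, adjusted p = 0.0107 in edgeR's test) and 1.15 without Nrf1-CKO replicate 1. On the deposited log2 values with limma it was 0.59 and not called (adjusted p = 0.287). Rspo2, Rspo3 and Rspo4 had at most 56 reads in a library, with log2 fold changes of 0.91, -0.03 and -0.80, overlapping genotypes and no call.

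Axin2, a negative regulator of beta-catenin that most cells switch on when the pathway is active, lies on chromosome 11 from 108920349 to 108950783. It had 1520 and 1129 reads in wildtype and 2665 and 2678 in Nrf1-CKO, from 16.3 ± 1.51 to 32.2 ± 0.204 CPM. The rise was 0.98 on the log2 scale (SE 0.10, adjusted p = 0.000318 in edgeR's test). Lef1, a DNA-binding partner of beta-catenin, had 1484 and 1043 reads in wildtype and 1801 and 1659 in Nrf1-CKO. Its log2 fold change of 0.43 (SE 0.12, adjusted p = 0.0373) stayed under the 1.4-fold limit, and it passed that limit without WT replicate 1 (0.57). Both mutant libraries were above both wildtype libraries for both targets.

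Promoters were read for the members to show what lies at their start sites, since Nrf1 is known to bind a GC-rich palindrome and beta-catenin acts through TCF/LEF words. RefSeq promoters of GRCm38.p6, from 250 bases before to 50 bases after each start, were at hand for 30 of the 46 members, as 36 windows. The Nrf1 word, GCGCA followed by TGCGC, was in 0 of the 36 windows on either strand, against 0.971% of 32851 promoters. With any base allowed at the sixth position, a form that includes the first, it was again in 0, against 4.60%. The TCF/LEF word CTTTGAA was in 1 window (Dkk1) and CTTTGAT in 2 (Wnt5b and Wnt11), against 5.14% and 3.73% of all promoters. These 3 windows are shown around the word, which is in capitals; Wnt11 carries its reverse complement. They lie at chr19:30549596-30549625 on the minus strand, chr6:119449391-119449517 on the minus strand and chr7:98835001-98835111 on the plus strand, and each is written 5′ to 3′ on the strand of its gene.
Dkk1: ctcctcccaaagCTTTGAAatcccatcccg
Wnt5b: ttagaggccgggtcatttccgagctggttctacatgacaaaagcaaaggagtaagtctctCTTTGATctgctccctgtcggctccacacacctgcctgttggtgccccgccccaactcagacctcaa
Wnt11: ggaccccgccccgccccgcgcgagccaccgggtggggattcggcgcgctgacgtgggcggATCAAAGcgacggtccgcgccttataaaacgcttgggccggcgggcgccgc
The Dkk1 stretch is kept to 30 bases because it lies within an exon of a GENCODE transcript. The word begins 117, 71 and 51 bases before the start in Dkk1, Wnt5b and Wnt11. Dkk1 and Wnt11 were called higher and Wnt5b was not, and the other called members with a window had neither TCF/LEF word in it.

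The rest of the pathway was read from a list of 67 further genes, of which 66 passed the filter. Of these, 16 were called higher (24.2%, against 12.8% of all tested genes) and 4 lower (6.06%, against 8.04%), with a median log2 fold change of 0.10. WNT secretion needs Porcn, which attaches the lipid, and Wls, which carries the ligand to the cell surface. Wls had 1020 and 796 reads in wildtype and 2263 and 2042 in Nrf1-CKO (log2 fold change 1.21, SE 0.11, adjusted p = 0.000210 in edgeR's test), with no overlap. Porcn was not called, with a log2 fold change of -0.02 (adjusted p = 0.950). Among 7 further antagonists, Sostdc1 rose from 65 and 50 to 120 and 148 reads (log2 fold change 1.19, adjusted p = 0.0494, and 1.02 with no call without Nrf1-CKO replicate 2). It was also not called on the deposited log2 values with limma (0.32). Dkkl1 fell by 1.22 on the log2 scale (adjusted p = 0.111), from a mean of 1.17 CPM in wildtype to 0.501 CPM in Nrf1-CKO. Frzb, an Sfrp relative, was not called (log2 fold change -0.78, adjusted p = 0.202).

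Inside the cell, 2 of 18 cytoplasmic genes were called higher and 1 lower, which is 11.1% and 5.56% and near the shares of all tested genes. Ctnnb1, which encodes beta-catenin, held 130403 and 105697 reads in wildtype and 122065 and 119845 in Nrf1-CKO, with a log2 fold change of 0.00 (SE 0.08). Nkd1, a feedback inhibitor that is itself a target, was also level (log2 fold change 0.00). Dact2, a partner of Dishevelled, rose by a log2 fold change of 1.03 (adjusted p = 0.0308 in edgeR's test) and was not called on the deposited log2 values with limma (0.38, adjusted p = 0.144). Apc2, the neuronal relative of Apc, fell by 1.01 (adjusted p = 0.000352). Of 9 planar polarity genes, 3 were called higher (33.3%, against 12.8% of all tested genes) and 1 lower (11.1%, against 8.04%). Daam2, a formin that binds Dishevelled, had 327 and 290 reads in wildtype and 1228 and 765 in Nrf1-CKO (log2 fold change 1.65, adjusted p = 0.000999, and 0.93, still called, on the deposited log2 values). Celsr3, a cadherin of growing axons, fell from 12490 and 12622 to 5913 and 4511 reads (log2 fold change -1.32, adjusted p = 0.000284).

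In the nucleus, Tcf7 rose from 520 and 538 to 1122 and 1188 reads (log2 fold change 1.08, SE 0.15, adjusted p = 0.00102 in edgeR's test). Tcf7l1, which acts mostly as a repressor, rose by a log2 fold change of 0.56 (adjusted p = 0.0133), and its call was lost without Nrf1-CKO replicate 1 (0.41), with glmTreat and on the deposited log2 values with limma (0.41). Tcf7l2 was not called (log2 fold change -0.19, adjusted p = 0.401). Of the 6 other targets on the list, Sp5, one of the most direct readouts of the pathway, had 3 and 2 reads in wildtype and 30 and 16 in Nrf1-CKO. It was called higher (adjusted p = 0.0435), the wildtype libraries are at the floor of 3 reads so no fold is given, and the call was lost without Nrf1-CKO replicate 1 and on the deposited log2 values with limma. Ccnd1, which encodes cyclin D1 and is also on the progenitor list, fell by 0.88 (adjusted p = 0.000229) and was not called on the deposited log2 values with limma (-0.87, adjusted p = 0.243). Of the rest, Myc was called higher (log2 fold change 0.80), Bambi (0.43) and T (1.15) were not called, and Cdx2 was not tested. Of the 5 tested targets on the list, 4 had a positive log2 fold change and 1, Ccnd1, a negative one.

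Markers of other cells moved with the genotype as well. The counts of calls below stand beside 12.8% higher and 8.04% lower over all tested genes. Of the ciliary margin list, 7 of 9 genes were called higher and none lower, and its sum was 548 and 545 CPM in wildtype and 880 and 952 CPM in Nrf1-CKO. Pigment epithelium markers were called higher in 6 of the 9 tested, with list sums of 215 and 154 against 387 and 411 CPM. Rpe65, not tested, had 4 reads in 1 wildtype library and none in the others. All 11 macrophage and microglia markers were higher (83.9 and 78.0 against 255 and 309 CPM). Endothelial markers were higher in 7 of 9 and lower in 1, with sums of 277 and 280 against 306 and 298 CPM. The lower gene was Kdr, which retinal progenitors also express, and without it the sums were 77.8 and 69.4 against 162 and 160 CPM.

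Periocular mesenchyme markers were called higher in 8 of 12 (279 and 195 against 433 and 365 CPM). Those of surface ectoderm and cornea were called higher in 6 of the 8 tested (30.3 and 23.8 against 47.8 and 43.5 CPM). Erythroid markers were called higher in 2 of the 6 tested, with list sums of 561 and 663 against 728 and 726 CPM. Of the 9 listed, 2 were at 0 in every library. Within Nrf1-CKO the sums of lens, periocular mesenchyme, endothelial, surface ectoderm and cornea, erythroid and ganglion cell markers were lower in replicate 2. Those of macrophage and microglia, ciliary margin, pigment epithelium and progenitor markers were higher there. Of the 17 members called higher, 6 were lower in replicate 2 and 11 were higher. Rspo1 (4.53 and 2.13 CPM) and Wnt7b (23.3 and 15.2 CPM) were among the 6, and Wnt11 (1.70 and 2.695 CPM) and Fzd1 (78.3 and 91.1 CPM) among the 11. Within wildtype the sums of lens, progenitor, ganglion cell, erythroid and, with Kdr, endothelial markers were higher in replicate 2, and the other sums were lower. Of the 17 members, 9 were lower there and 8 higher. How often all tested genes took either order was not counted. The part of these other cells in the WNT differences was not tested. The scaling was also set without the lens, pigment epithelium, erythroid, macrophage and microglia, endothelial and periocular mesenchyme lists. The counts then stayed at 17 members higher and 1 lower. That step changes only the scaling and keeps any reads of other cells in the members, so it cannot show their part.

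**Figure D5:**
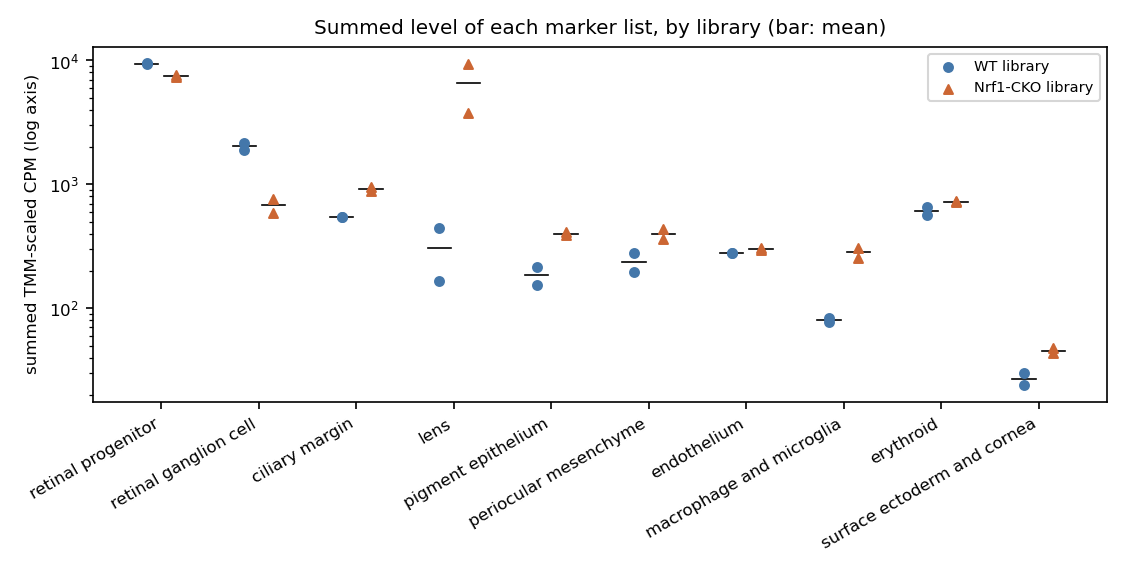
Summed TMM-scaled CPM of each marker list on a log axis, with wildtype libraries as circles, Nrf1-CKO libraries as triangles and a bar at each mean. Ganglion cell and progenitor sums are lower in Nrf1-CKO, the latter with 2 of 13 genes called lower, Ccnd1 (2658 to 1446 CPM) and Fgf15 (1137 to 701 CPM), and the sums of the other 8 lists are higher in both mutant libraries.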

How the data were processed

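RNA-seq libraries of pooled E13.5 retinas were sequenced as paired-end reads. Alignment to mm10 (TopHat2 2.7.2) and counting per gene (HTSeq) were done by the authors, and the deposited counts are raw. They also deposited normalized values on a log2 scale, for which the submitters' processing notes name DESeq and limma. The annotation release and the strand setting are not given in the sources used here. The headers hold more cells than the data have columns, so the sample names were read in order over the value columns. Both tables rank the genes of a library alike (rank correlation 1). Summary rows, 74.0% to 75.0% of all entries, stayed out of library sizes and tests.

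Counts were filtered with filterByExpr (minimum count 10), scaled with TMM factors (0.992 to 1.02) and fitted in R 4.3.3 with edgeR 4.0.16 (quasi-likelihood test), with Benjamini-Hochberg adjustment. The fold and p limits are those of the study, whose Cuffdiff step works from alignments. At these limits 2024 genes were called higher and 1268 lower here, more than the study reports. The calls are thus not interchangeable with its gene lists. The biological coefficient of variation was 12.0%. Between replicates, chi-square per gene was 46.7 in wildtype and 58.8 in Nrf1-CKO, far above the level of a repeated library. SEs reflect counting error and the spread between the 2 libraries of a genotype, which the fit estimates in part from all genes together. PCR copies are not independent molecules.

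Exon lengths, coordinates and overlaps came from the GENCODE annotation of GRCm38, which held all 46 members. Exons of Fzd5, Sfrp2, Lef1, Rspo3, Wnt11, Wnt7b, Wnt5a, Axin2 and Fzd6 overlap an opposite-strand gene over 3.2% to 17.8% of their length, so their reads could include its transcripts.

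The rule for members reads only symbols, but this set of genes, the gene lists and the tests were chosen with earlier results of these data known. Named were all called members and tested members with a mean of at least 1 CPM. Of the further pathway list, up to 5 called genes in each direction with a mean of at least 1 CPM were named. Also named were 9 genes of that list whatever their values (Ctnnb1, Tcf7, Tcf7l1, Tcf7l2, Wls, Porcn, Sp5, Nkd1 and Frzb). Dkkl1, Kdr, Rpe65, Wnt10b, Bambi, T, Cdx2 and the genes under other observations were added after their values were seen. Alternatives were DESeq2 1.42.0, other scalings, filters and thresholds, glmTreat in edgeR, the replicate number as a block, the deposited log2 values with limma 3.58.1, and each library left out in turn.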

Additional observations from a re-analysis of the deposited data

How the results depend on the processing

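The members called higher, 17, came to between 13 and 18 under the other count fits, 11 with glmTreat against 1.4-fold, 10 with the deposited log2 values in limma and 14 to 16 with each library left out. On the deposited values Dkk2, Fzd6, Rspo1, Sfrp5, Wnt7a, Wnt7b, Wnt8b and Wnt9a were no longer called. Shares of all tested genes were counted only for the main fit and at an adjusted p of at most 0.05. The 1 member called lower became 2 with library size only or without the filter, 0 at an adjusted p of at most 0.05, with glmTreat and with the deposited values, and 0 to 1 with a library left out. With at least 10 reads in every library it was Wnt3, as Wnt8b was not tested. Of the further pathway genes, 16 were called higher and 4 lower; with glmTreat 9 were higher, with the deposited values 7 were higher and 2 lower (Sostdc1, Tcf7l1, Dact2, Sp5 and Ccnd1 among those lost), and with a library left out 11 to 17 were higher and 3 to 6 lower. The cause was not tested. The libraries share only a replicate number (correlation of deviations -0.0025), and with that number as a block 16 members were called higher and 1 lower.

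The sign changes were in genes that were not called. With library size only the log2 fold change was -0.017 for Fzd5, -0.018 for Ctnnb1 and -0.019 for Nkd1. With upper-quartile scaling it was 0.028 for Lrp5, 0.0084 for Rspo3, 0.0080 for Sfrp2 and 0.024 for Porcn. The block fit gave 0.0051 for Rspo3 and -0.00031 for Nkd1, the fit without a filter -9.4e-05 for Nkd1, and the deposited values 4.2e-05 for Rspo3. With each library left out the log2 fold change ran from -0.058 to 0.073 for Fzd5, -0.41 to 0.095 for Fzd9, -0.078 to 0.050 for Lrp5, -0.55 to 0.64 for Rspo3, -1.46 to 0.033 for Rspo4, -0.14 to 0.069 for Sfrp2, -0.035 to 0.094 for Sfrp4, -0.10 to 0.45 for Wif1, -0.68 to 2.85 for Wnt10a, -0.86 to 0.24 for Wnt2, -0.79 to 0.75 for Wnt3a, -0.026 to 0.037 for Ctnnb1, -0.11 to 0.093 for Porcn and -0.050 to 0.048 for Nkd1.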

Other observations

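Further genes of the pathway were chosen here after their values were seen. Ror1 and Ror2, co-receptors for Wnt5a, rose from 1724 and 1256 to 2715 and 2563 reads (log2 fold change 0.80, adjusted p = 0.00104 in edgeR's quasi-likelihood test with Benjamini-Hochberg adjustment) and from 894 and 747 to 1222 and 1360 reads (0.62, adjusted p = 0.00682). Nkd2, relative of the level Nkd1, rose from 1650 and 1289 to 2709 and 3263 reads (0.99). Myc, a growth regulator and pathway target, rose from 1721 and 1273 to 2536 and 2780 reads (0.80), where Ccnd1 fell. Kremen2, a receptor for Dkk proteins, counted 46 and 12 reads in wildtype and 129 and 65 in Nrf1-CKO (1.75, adjusted p = 0.0813). Norrin (Ndp), the ligand of Fzd4, had 108 and 124 reads in wildtype and 70 and 100 in Nrf1-CKO and was not called (-0.50, adjusted p = 0.403), and its co-receptor Tspan12 was level (0.05).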
